A study of Mus musculus with 9 samples.

Results

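The genes described are 8 genes of the Hedgehog pathway in mouse liver cancer cells: the ligands Shh and Ihh, the receptor Ptch1, the transducer Smo, the inhibitor Hhip, and the transcription factors Gli1, Gli2 and Gli3. They were taken from the table of gene counts by symbol, 8 of 55276 symbols, and 6 of the 8 passed the filter on low counts that left 17672 genes to test. Shh and Ihh did not pass. Every group came from the PPTR line, a cultured tumor line from a mouse model of liver cancer that carries Prom1CreERT2, in which Cre is driven by Prom1, and a Rosa-ZsGreen reporter. The control cells are labelled WT for Vcam1 only, and they carry the same Cre, reporter and other engineered alleles as the knockout cells. Vcam1KO1 and Vcam1KO2 (KO1 and KO2 from here) are cells in which Cas9 was directed to exon 2 of Vcam1, which encodes a cell adhesion molecule.

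Each knockout group is 1 single-cell clone, so the effect of the edit and the individuality of a clone cannot be told apart within a group. The study sequenced polyadenylated RNA of Vcam1ctrl, KO1 and KO2 cells, 3 libraries each and 9 in all, to find genes that follow the loss of Vcam1. Libraries of a group came from different passages of the cells, and no source says more about their independence, so that the p values measure the spread between these libraries and that spread may be partly technical. The comparisons of each clone with control share the same 3 control libraries.

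In the Hedgehog pathway a secreted ligand (Shh, Ihh or Dhh) binds Ptch1 on the receiving cell, which lifts the block that Ptch1 holds on Smo. Smo then acts at the primary cilium on the Gli factors. Gli1 acts mainly as an activator and is itself a target of the pathway, Gli2 is the main primary activator, and Gli3 is processed to a repressor when no ligand is present. Ptch1, Hhip and Gli1 are commonly read as targets, and in liver the pathway is known for ligand exchange between biliary cells and stromal cells.

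Libraries held between 53415907 and 125223073 counts. Vcam1 was at 248, 221 and 329 CPM (the count relative to library size, scaled with TMM factors) in control, at 98.8, 92.4 and 128 in KO1 and at 119, 99.4 and 83.0 in KO2. Vcam1 RNA was thus lower in all 6 clone libraries (log2 fold change -1.36, SE 0.17, edgeR adjusted p = 0.00021), without being lost. The paper reports that both clones lost Vcam1 expression, by quantitative RT-PCR and by flow cytometry with an antibody. RNA counts do not measure the protein. Quantitative RT-PCR also measures RNA, but its forward primer lies over the site to which Cas9 was directed. The counts draw on the whole transcript, and the part of this in the difference was not tested. KO1 replicate 3 stood apart from the other KO1 libraries, at 240.3 and 274.6 chi-square per degree of freedom against 36.0 between those. KO2 replicate 3 did so to a lesser degree (165.6 and 113 against 35.8), and the control libraries lay between 84.4 and 169.3 of each other. The summed level of 9 biliary epithelial markers was 11500 to 12240 CPM in control, 243.9 to 452 in KO1 and 176 to 285.7 in KO2, and Krt19, a biliary keratin, fell from between 2129 and 2406 CPM to at most 0.226. Both clones thus had next to no RNA of this biliary keratin. The sum of 12 stellate and fibroblast markers was 412.8 to 803.1 CPM in control, 11420 to 13610 in KO1 and 6411 to 8792 in KO2, with Lrat, the stellate cell enzyme that stores retinol, at 0 counts in 8 of 9 libraries. Of the 8 tested, 5 were higher and 1 lower in KO1, and 6 were higher and 0 lower in KO2. In control the fibrillar collagen Col1a2 was the largest part of the sum, at 258.5 to 569.8 CPM. Col1a1, another fibrillar collagen, carried most of the sum in both clones. It was at 55.0 to 136 CPM in control, 7780 to 9204 in KO1 and 4199 to 5008 in KO2. Dcn, a matrix proteoglycan, went the other way in KO1, at 58.3 to 105.3 CPM in control and 2.16 to 8.35 in KO1. The sum of 5 hepatocyte markers was 245.8 to 426.7 CPM in control, at most 3.02 in KO1 and at most 0.514 in KO2, and that of 5 endothelial markers was at most 2.02 in any library. For 5 haematopoietic markers it was 7.47 to 20.7 CPM in control, 5.08 to 8.25 in KO1 and 6.92 to 9.37 in KO2, while Ptprc, which marks leukocytes, was at most 0.443. Epithelial and fibroblast markers move with every comparison of clones and control below, and their part in the results was not tested. In bulk RNA, fewer cells of a type and less RNA per cell cannot be told apart.

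The upstream sequences of Hhip, Gli2 and Smo are shown first, because Hhip and Gli2 differed most between the clones and Smo rose in both. Each is the 250 bases before the RefSeq start of the gene (GRCm38.p6), on the strand of the gene, with CG dinucleotides in capitals. Hhip lies at chr8:80058009-80058258 on the minus strand, Gli2 at chr1:119053620-119053869 on the minus strand and Smo at chr6:29735247-29735496 on the plus strand.
Hhip: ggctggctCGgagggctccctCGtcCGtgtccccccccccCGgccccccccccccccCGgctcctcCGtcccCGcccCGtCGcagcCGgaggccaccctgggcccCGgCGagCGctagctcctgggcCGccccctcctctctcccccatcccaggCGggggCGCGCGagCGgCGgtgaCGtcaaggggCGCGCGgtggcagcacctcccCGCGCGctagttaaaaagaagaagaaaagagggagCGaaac
Gli2: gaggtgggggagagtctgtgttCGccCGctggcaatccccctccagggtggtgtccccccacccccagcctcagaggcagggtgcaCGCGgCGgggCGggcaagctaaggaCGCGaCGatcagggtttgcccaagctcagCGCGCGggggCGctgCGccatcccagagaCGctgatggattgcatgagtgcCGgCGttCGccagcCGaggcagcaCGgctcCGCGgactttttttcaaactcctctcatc
Smo: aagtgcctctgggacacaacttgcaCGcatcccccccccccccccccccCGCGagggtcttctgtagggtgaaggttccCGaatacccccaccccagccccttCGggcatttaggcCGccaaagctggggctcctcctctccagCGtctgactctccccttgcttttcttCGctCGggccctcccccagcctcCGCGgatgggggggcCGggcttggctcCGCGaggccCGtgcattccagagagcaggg

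On GRCm38, in the GENCODE annotation, the ligand genes lie apart, with Shh at chr5:28456815-28467256 (minus strand) and Ihh at chr1:74945315-74951672 (minus strand). Among the receptor genes, Ptch1 at chr13:63508328-63573598 (minus strand), Smo at chr6:29735503-29761365 (plus strand) and Hhip at chr8:79965851-80058006 (minus strand) are on different chromosomes. The Gli genes are likewise unlinked, with Gli1 at chr10:127329882-127341974 (minus strand), Gli2 at chr1:118834132-119053619 (minus strand) and Gli3 at chr13:15463235-15730026 (plus strand).

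Promoters were found for 6 of the 8 genes, Shh and Gli1 being the exceptions. These windows were rich in CG, with 28 CG dinucleotides upstream of Hhip, 22 upstream of Gli2, 15 upstream of Smo, 24 upstream of Ihh, 34 upstream of Gli3 and 41 upstream of Ptch1, against a median of 6 over 32851 RefSeq promoters. As many or more were found in 7.61% of promoters for Hhip, 14.8% for Gli2 and 27.3% for Smo. The Gli consensus GACCACCCA and its core CCACCCA, read on both strands, had 0 matches in the 6 windows. Of all promoters, 0.225% held the consensus and 8.11% the core, which lies within the consensus and contains the CACCC box that Klf and Sp factors also use. The absence of a match says only that these letters are not in these windows.

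In the combined comparison of 6 clone libraries with 3 control libraries, 2 of the 6 tested genes rose, Smo and Gli3, and 0 fell. Over all genes tested, 43.0% were called, 21.7% higher and 21.2% lower, so the share of Hedgehog genes called was no larger than that of genes at large. The other 4, Ptch1, Hhip, Gli1 and Gli2, were not called. For Hhip, Gli1 and Gli2 the clones lay on different sides of control or at different distances from it, and the clones are therefore described separately.

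**Figure D1:**
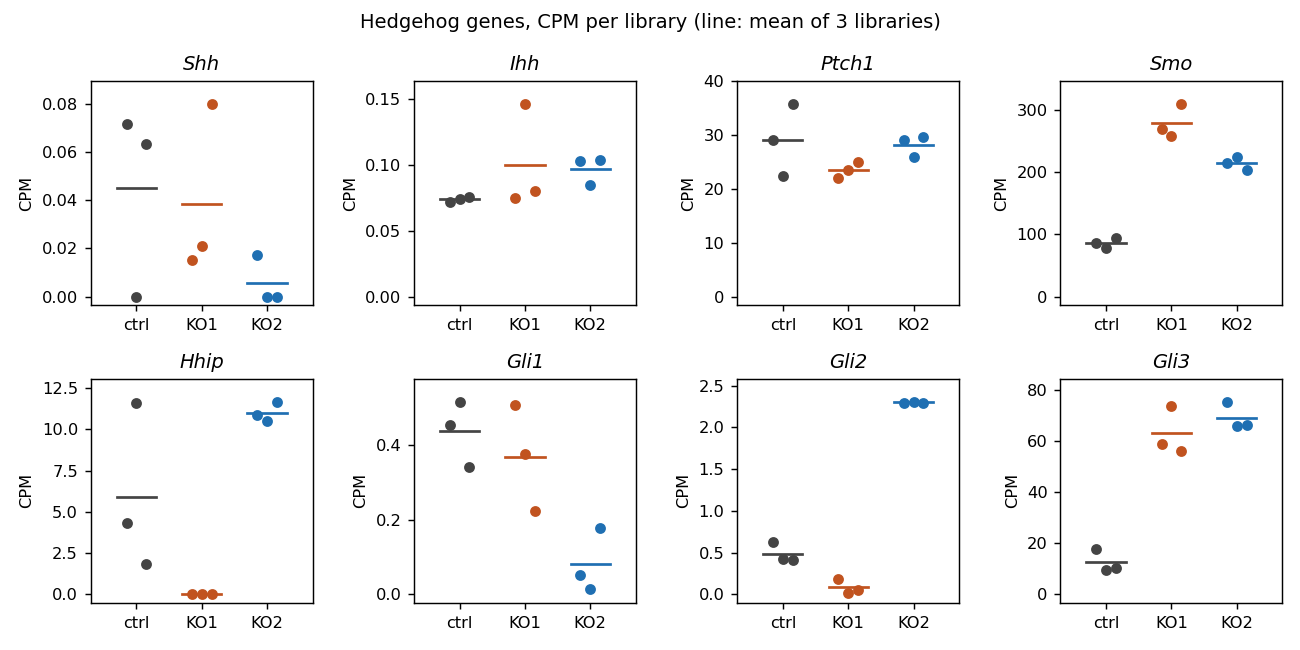
CPM of the 8 Hedgehog genes in each library (points) by group, with the mean of 3 libraries as a line; each panel has its own linear axis. Smo and Gli3 are higher in all 6 clone libraries than in control, Hhip is at 0 in KO1 only, and Gli2 is lowest in KO1 and highest in KO2.

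The ligands were close to the limit of detection. Shh, best known from embryonic patterning, had 9, 0 and 5 counts in control, 1, 2 and 5 in KO1 and 1, 0 and 0 in KO2. Ihh, which acts in cartilage and gut, had 9, 4 and 6 counts in control, 5, 14 and 5 in KO1 and 6, 6 and 7 in KO2. The groups overlapped for both genes. In the fit without the filter, the edgeR adjusted p lay between 0.13 and 0.76 for Shh and between 0.57 and 1 for Ihh over the 4 comparisons, and a difference was not detectable at this depth. Overlapping transcripts on the opposite strand are annotated at Shh.

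The other mammalian ligand, Dhh, known from Schwann and Sertoli cells, was at 8.16, 7.07 and 11.1 CPM in control, at 0.0898, 0.0417 and 0.0479 in KO1, and at 0, 0.0283 and 0 in KO2. Dhh was thus nearly lost from both clones. It fell by 7.19 on the log2 scale in KO1 (SE 0.50, edgeR adjusted p = 2.6e-06), and in KO2 2 counts in all stood against 2284 in control, a ratio of 868 with a 95% counting interval of 240 to 7170. The difference between the clones, 2.35 on the log2 scale, missed the threshold (edgeR adjusted p = 0.054). It passed with limma-voom (2.26, adjusted p = 0.045), with upper-quartile scaling (2.42, edgeR adjusted p = 0.047) and without KO2 replicate 2 (5.19, edgeR adjusted p = 0.017), which held both KO2 counts. The value of 5.19 depends on the prior count, since KO2 then held 0 counts. Over all libraries 13 counts in KO1 stood against 2 in KO2, a ratio of 5.68 with a 95% counting interval of 1.28 to 51.8. The biliary epithelial markers fell in the same libraries as Dhh, and their part in the fall of Dhh was not tested.

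Ptch1, the receptor that restrains Smo and a target gene of the pathway, was at 29.1, 22.4 and 35.8 CPM in control, at 22.1, 23.5 and 25.0 in KO1, and at 29.2, 25.9 and 29.6 in KO2. The groups overlapped, and the control libraries spanned nearly the whole range. The log2 fold change was -0.31 in KO1 (95% interval -0.68 to 0.06, edgeR adjusted p = 0.14) and -0.05 in KO2 (95% interval -0.42 to 0.33, edgeR adjusted p = 0.84). Without control replicate 2, the value in KO1 was -0.53 and passed the threshold (edgeR adjusted p = 0.010). A transcript on the same strand, A930032L01Rik, overlaps Ptch1, and reads could be split between them.

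Smo, the membrane protein that carries the signal past Ptch1, rose in both clones. It was at 86.4, 77.2 and 94.7 CPM in control, at 268, 257 and 309 in KO1, and at 215, 224 and 202 in KO2. All 6 clone libraries were above all control libraries, and the clones did not overlap each other. The log2 fold change was 1.51 over both clones (SE 0.17, edgeR adjusted p = 9.5e-05), 1.69 in KO1 (SE 0.12, edgeR adjusted p = 3e-06) and 1.31 in KO2 (SE 0.12, edgeR adjusted p = 1.8e-05). KO1 exceeded KO2 by 0.38 (SE 0.12, edgeR adjusted p = 0.030), but this call was lost on omission of any of 6 single libraries, with an adjusted p of up to 0.12, and without the filter on low counts. Without KO1 replicate 3 it was 0.30 (edgeR adjusted p = 0.080). A processed pseudogene, Gm13717, lies on the same strand within Smo, so its counts are to that extent uncertain.

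Hhip, a membrane protein that binds and sequesters Hedgehog ligands, separated the clones most. It was at 4.31, 11.6 and 1.83 CPM in control, at 0 in all 3 KO1 libraries, and at 10.9, 10.5 and 11.7 in KO2. KO1 held 0 counts against 1314 in control and 2167 in KO2, whereas the KO2 values sat at the upper end of the control range. With 3 counts per library as the limit that a count of 0 allows (0.0414 CPM on average), Hhip was at least 143-fold lower in KO1 than in control (edgeR adjusted p = 0.00015) and at least 266-fold lower than in KO2 (edgeR adjusted p = 0.00033). Both calls held with any 1 library left out. Without control replicate 2 the control mean was 3.07 CPM and the bound was at least 74.3-fold. The difference of KO2 from control was 0.90 on the log2 scale (SE 0.58, edgeR adjusted p = 0.23), and without control replicate 2, the highest, it was 1.81 and passed (edgeR adjusted p = 0.0093). The combined comparison averaged over these unlike clones and gave -0.10 with an SE of 1.88 (edgeR adjusted p = 0.97).

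The genes beside Hhip on the chromosome were looked at after its values were known. Anapc10, a subunit of the anaphase-promoting complex that lies 186792 bases away, was at 10.7, 13.2 and 9.31 CPM in control and at 13.1, 12.5 and 9.93 in KO1. Smarca5, a chromatin remodeling ATPase on the other side at 640501 bases, was at 92.0, 90.1 and 81.3 CPM in control and at 93.7, 92.4 and 66.6 in KO1. Neither was called in KO1 (edgeR adjusted p = 0.67 and 0.75), and transcripts of these genes on both sides of Hhip were thus present at levels that overlapped control. Farther out on the side of Anapc10, Abce1 and Otud4 were lower in every KO1 library than in control. Abce1 was at 123.8 to 186.1 CPM in control and 68.92 to 113.5 in KO1, and Otud4 at 74.59 to 84.21 and 32.45 to 38.25.

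**Figure D2:**
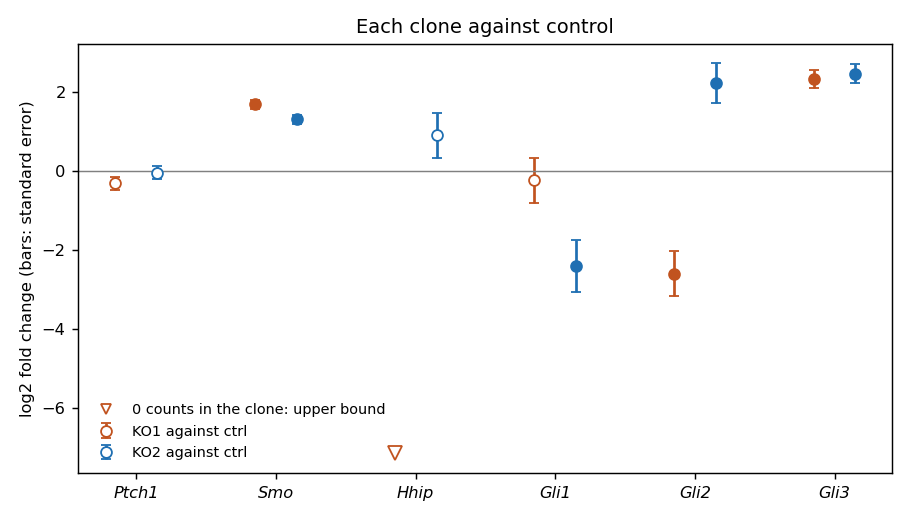
Log2 fold change of the 6 tested genes in each clone against the shared control libraries, with standard errors as bars; filled points have an edgeR adjusted p under 0.05, and the triangle is the upper bound (-7.16) for Hhip in KO1, where it had 0 counts. Smo and Gli3 lie above 0 in both clones, and Gli2 lies below 0 in KO1 and above 0 in KO2.

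In KO1, 2 of the 6 tested genes were higher (Smo and Gli3) and 2 lower (Hhip and Gli2), against 59.9% of all genes called, 29.9% higher and 30.0% lower. In KO2, 3 were higher (Smo, Gli2 and Gli3) and 1 lower (Gli1), against 51.4% of all genes called, 25.3% higher and 26.1% lower. Between the clones, Smo and Gli1 were higher and Hhip and Gli2 lower in KO1, 4 of 6, against 38.7% of all genes called, 20.2% higher and 18.5% lower. Without KO1 replicate 3, the calls of Smo (1.61), Hhip, Gli2 (-2.37) and Gli3 (2.41) in KO1 held, and 3 of 6 genes were called between the clones. Without KO2 replicate 3, the calls of Smo (1.33), Gli1 (-3.74), Gli2 (2.22) and Gli3 (2.48) in KO2 held, and again 3 of 6 were called between the clones, Smo being lost.

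Gli3, which mainly represses targets in the absence of ligand, rose in both clones. It was at 17.7, 9.45 and 10.2 CPM in control, at 58.8, 73.9 and 56.3 in KO1, and at 75.4, 65.8 and 66.4 in KO2. Every clone library lay above every control library, and the clones overlapped. The log2 fold change was 2.41 over both clones (SE 0.23, edgeR adjusted p = 4.1e-05), 2.33 in KO1 (edgeR adjusted p = 2.8e-05) and 2.47 in KO2 (edgeR adjusted p = 2.5e-05). KO1 minus KO2 was -0.14, with a 95% interval of -0.64 to 0.37 (edgeR adjusted p = 0.66). The pseudogene Gm48343 lies on the same strand within Gli3.

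Gli2, the main activator of target genes on pathway stimulation, moved in opposite directions in the clones. It was at 0.622, 0.425 and 0.405 CPM in control, at 0.180, 0.0209 and 0.0479 in KO1, and at 2.30, 2.31 and 2.29 in KO2. The 3 groups did not overlap, with 133 counts in control, 17 in KO1 and 452 in KO2. Gli2 fell by 2.598 on the log2 scale in KO1 (SE 0.58, edgeR adjusted p = 0.0037) and rose by 2.23 in KO2 (SE 0.50, edgeR adjusted p = 0.0042), and the clones differed by -4.83 (SE 0.59, edgeR adjusted p = 0.00032). These calls held with any 1 library left out, at values of -3.90 in KO1 and -6.12 between the clones without KO1 replicate 1, and of -2.07 and -4.31 without KO1 replicate 2. Over both clones the value was 1.29 (SE 1.31, edgeR adjusted p = 0.45), and limma-voom gave -0.45.

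Among the neighbors of Gli2, also looked at after its values were known, Inhbb, which encodes an inhibin and activin subunit, rose in both clones. It was at 2.25, 1.86 and 4.25 CPM in control, at 18.7, 23.5 and 16.0 in KO1, and at 43.8, 45.2 and 30.6 in KO2. All clone libraries were above control, with a log2 fold change of 2.79 in KO1 (SE 0.32, edgeR adjusted p = 6e-05) and 3.83 in KO2 (SE 0.33, edgeR adjusted p = 1.3e-05). Tfcp2l1, a transcription factor on the other side of Gli2, was lower in both clones, at -1.18 (edgeR adjusted p = 0.0027) and -1.76 (edgeR adjusted p = 0.00033). Neither Inhbb nor Tfcp2l1 thus moved in opposite directions in the clones as Gli2 did. Of the neighbors farther out, Clasp1 was higher and Ralb lower than control in all clone libraries. Nifk and Tmem185b were lower in every KO1 library than in control and KO2, and overlapped control in KO2. Nifk was at 50.97 to 77.38 CPM in control, 29.88 to 40.43 in KO1 and 60.58 to 66.39 in KO2. Tmem185b was at 29.58 to 36.6, 17.95 to 19.9 and 26.03 to 32.18 CPM in the same order.

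Gli1, the activator whose level is the usual readout of pathway activity, was low throughout. It was at 0.454, 0.517 and 0.342 CPM in control, at 0.509, 0.376 and 0.224 in KO1, and at 0.0514, 0.0141 and 0.178 in KO2, with 112, 84 and 16 counts in the groups. KO1 overlapped control, whereas all KO2 libraries were below both. The log2 fold change was -0.24 in KO1 (95% interval -1.52 to 1.04, edgeR adjusted p = 0.74) and -2.40 in KO2 (SE 0.66, edgeR adjusted p = 0.013). The call in KO2 was lost without KO2 replicate 1 (-2.17, edgeR adjusted p = 0.053), and the value was -3.74 without KO2 replicate 3. KO1 exceeded KO2 by 2.17 (SE 0.66, edgeR adjusted p = 0.028), a call lost without KO1 replicate 1 (1.83, edgeR adjusted p = 0.090), KO1 replicate 2 (2.15, edgeR adjusted p = 0.060), KO2 replicate 1 (1.89, edgeR adjusted p = 0.10) or KO2 replicate 2 (1.65, edgeR adjusted p = 0.077). Without KO2 replicate 3 it was 3.46 (edgeR adjusted p = 0.0064). Gli1 shares its locus with Arhgap9 on the opposite strand, and the counting used strand.

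Levels of different genes were compared as CPM per kilobase of the longest annotated transcript. In control, Smo was highest at 22.8 ± 2.3 (SD, n = 3), followed by Ptch1 at 2.81, Gli3 at 1.53 and Hhip at 0.652, then Gli1 at 0.108, Gli2 at 0.0729, Ihh at 0.0299 and Shh at 0.0158 CPM per kilobase. Smo was above all others, while Ptch1 and Gli3, Gli3 and Hhip, and Gli1 and Gli2 overlapped over the libraries. In KO1 the order was Smo at 73.6, Gli3 at 7.71, Ptch1 at 2.27, Gli1 at 0.0911, Ihh at 0.0406, Shh at 0.0135, Gli2 at 0.0125 and Hhip at 0 CPM per kilobase. Gli3 was above Ptch1 in every KO1 library, while Gli1 and Ihh, and Shh and Gli2, overlapped. In KO2 it was Smo at 56.5, Gli3 at 8.47, Ptch1 at 2.72, Hhip at 1.21, Gli2 at 0.346, Ihh at 0.0393, Gli1 at 0.0200 and Shh at 0.0020 CPM per kilobase. There Ihh and Gli1, and Gli1 and Shh, overlapped. The distances and part of this order depend on the length used. The ratio of Smo to Ptch1 per kilobase in control was 8.29 with the longest transcript and 1.60 with the median one. With the median length, Gli2 (0.531) stood above Gli1 (0.459) in control, Gli2 (0.0909) above Ihh (0.0520) and Shh (0.0135) in KO1, and Gli2 (2.52) above Hhip (2.15) and Gli1 (0.0849) above Ihh (0.0504) in KO2.

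Among the Gli genes, a description added after the values were seen, Gli3 made up most of the summed level per kilobase in every library. Its share was 88.9% ± 2.8 (SD, n = 3) in control, 98.7% ± 0.64 in KO1 and 95.8% ± 0.42 in KO2. The share of Gli2 was 4.36% in control, 0.169% in KO1 and 3.93% in KO2, and that of Gli1 was 6.74%, 1.17% and 0.229%. Gli3 was thus the main Gli transcript in control and in both clones, with the remainder split differently in each clone. With the median transcript length, the Gli3 share was 83.1% in control, 98.1% in KO1 and 91.5% in KO2.

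**Figure D3:**
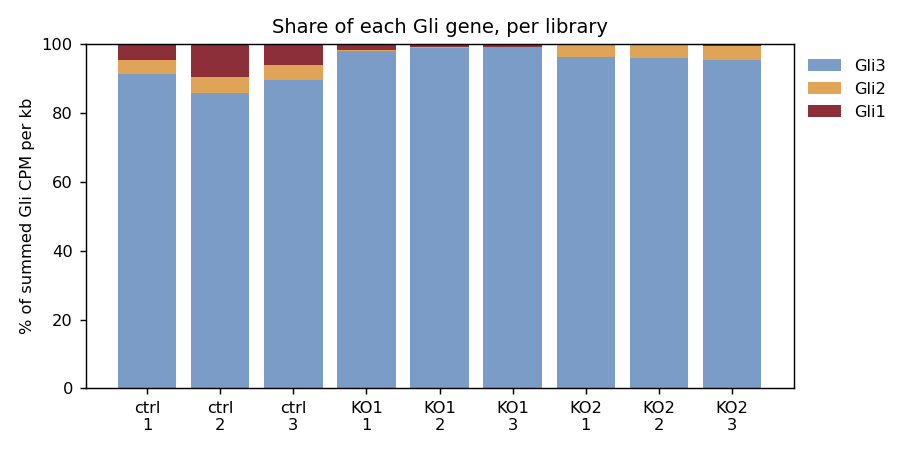
Share of Gli1, Gli2 and Gli3 in their summed CPM per kilobase of the longest transcript, with a stacked bar for each library, in percent. Gli3 holds between 85.8% and 91.4% in control libraries, at least 97.9% in KO1 and between 95.4% and 96.3% in KO2.

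Genes with the profile most like each member were named by the root mean square difference of centred log2 CPM over the 9 libraries, among 13087 genes. Nearest to Ptch1 were Ssh3, Zfp335 and Abl2 (0.0867 to 0.099), nearest to Smo were Slc39a13, Kank2 and R74862 (0.095 to 0.0983), and nearest to Gli3 were Chst7, Pcdh7 and Morn4 (0.161 to 0.219). For Hhip they were Wnt6, Mmp10 and Rragb, at a larger distance of 0.845 to 0.928. Wnt6, a Wnt ligand, was at 3.23 to 4.66 CPM in control, at most 0.0449 in KO1 and 13.7 to 16.9 in KO2. Mmp10, a secreted metalloproteinase, was at 2.16 to 4.25, at most 0.0160 and 9.88 to 12.6 CPM in the same order. Both were thus near absent in KO1 and, unlike Hhip, above every control library in KO2.

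The co-receptors, cell surface proteins that present ligand to Ptch1, had the largest median change among the 5 pathway lists. Of 8 listed genes 5 were tested, and in the combined comparison 4 rose and 1 fell, with a median log2 fold change of 1.98 against 0.07 over all genes tested. In KO1 4 rose and 0 fell, in KO2 4 rose and 1 fell, and 2 were higher and 0 lower in KO1 than in KO2. Over all genes, 43.0%, 59.9%, 51.4% and 38.7% were called in these comparisons, in the same order. The members that rose were Boc, Gas1, Cdon and the glypican Gpc6, while Lrp2 fell, which is an endocytic receptor (-1.23, edgeR adjusted p = 0.027).

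Boc was at 0.765, 0.867 and 0.405 CPM in control, at 20.4, 19.3 and 45.1 in KO1, and at 14.6, 14.7 and 13.4 in KO2, a log2 fold change over both clones of 4.97 (SE 0.55, edgeR adjusted p = 1e-04). Gas1 was at 27.9, 27.2 and 19.1 CPM in control, at 302, 278 and 352 in KO1, and at 230.1, 260.1 and 308 in KO2, a log2 fold change of 3.54 (SE 0.21, edgeR adjusted p = 2.7e-06). Cdon was at 21.8, 19.99 and 35.2 CPM in control, at 91.0, 91.1 and 65.8 in KO1, and at 125.1, 126.2 and 109.6 in KO2, a log2 fold change of 1.98 (SE 0.27, edgeR adjusted p = 0.00036). No clone library overlapped control for these 3 genes. Boc was higher in KO1 than in KO2 by 0.99 (edgeR adjusted p = 0.047), a call lost on omission of any of 6 single libraries (control replicate 1 or 2, KO1 replicate 3 or any KO2 replicate) and with limma-voom (0.85, adjusted p = 0.059). Without KO1 replicate 3 it was 0.48 (edgeR adjusted p = 0.16). Gpc6 rose by 1.13 (SE 0.32, edgeR adjusted p = 0.018), a call lost without control replicate 1 (1.15), 2 (0.995) or 3 (1.17), with an edgeR adjusted p of up to 0.072.

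**Figure D4:**
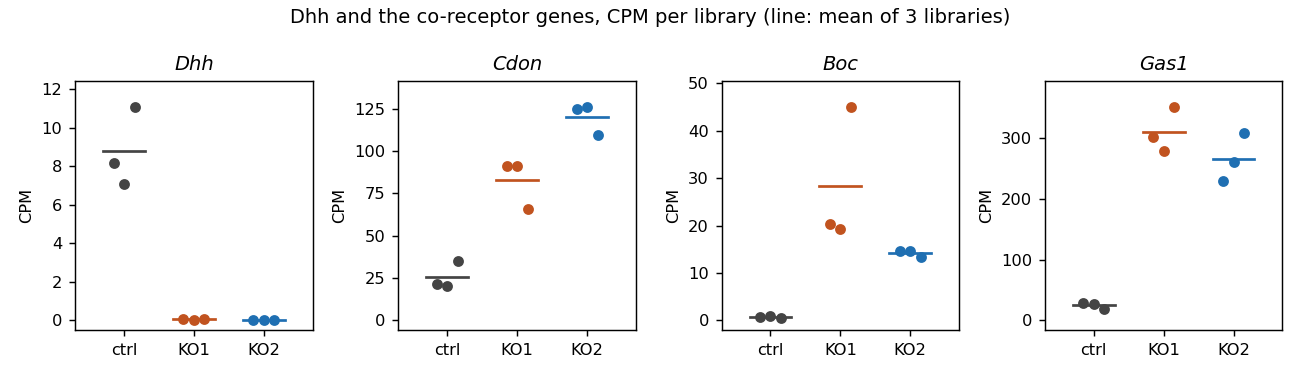
CPM of Dhh and of the co-receptor genes Cdon, Boc and Gas1 in each library (points), with the mean of 3 libraries as a line, on linear axes. Dhh is at most 0.0898 CPM in the clones, and the co-receptor genes are higher in all 6 clone libraries than in control.

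Among the 8 genes of Dhh and of ligand processing and release, 7 were tested. In the combined comparison 2 rose and 2 fell (median log2 fold change 0.37), in KO1 3 rose and 2 fell, in KO2 3 rose and 2 fell, and between the clones 1 was higher and 1 lower in KO1, beside 43.0%, 59.9%, 51.4% and 38.7% of all genes called. Scube3, a secreted protein of the family that helps release ligand, rose from 14.8, 14.04 and 9.45 CPM in control to 43.8, 34.3 and 26.3 in KO1 and 93.7, 89.0 and 71.3 in KO2 (log2 fold change 2.23, SE 0.46, edgeR adjusted p = 0.0037). The sheddase Adam17 rose by 0.76 (SE 0.10, edgeR adjusted p = 0.00036). Besides Dhh, the gene that fell was Disp2, a relative of the ligand exporter Disp1, named after its values were seen, at 1.27 to 3.59 CPM in control and at most 0.481 in the clones (log2 fold change -2.26, SE 0.35, edgeR adjusted p = 8e-04). The list thus moved in both directions.

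Of 28 tested transducers and regulators of the Gli proteins, 9 rose and 4 fell in the combined comparison, with a median log2 fold change of 0.05. In KO1 12 rose and 5 fell, in KO2 9 rose and 6 fell, and between the clones 8 were higher and 4 lower in KO1. The share called in the combined comparison was near that of all genes (43.0%), and the other comparisons stand beside 59.9%, 51.4% and 38.7% of all genes. Gpr161, a ciliary receptor that holds the pathway in check, was at 2.54, 2.12 and 2.07 CPM in control, at 27.0, 24.4 and 20.5 in KO1, and at 24.0, 22.5 and 25.2 in KO2 (log2 fold change 3.41, SE 0.16, edgeR adjusted p = 9.9e-07). Every clone library was thus far above control, and the clones overlapped. Evc, a ciliary partner of Smo, rose by 1.73 (edgeR adjusted p = 0.00025) and Kif7, a ciliary kinesin that regulates Gli proteins, by 1.40 (edgeR adjusted p = 0.0018). Arrb2, a beta-arrestin that binds Smo, fell by 1.40 (SE 0.16, edgeR adjusted p = 0.00011).

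Sufu, which holds Gli proteins inactive in the cytoplasm, was at 67.4, 62.9 and 67.3 CPM in control, at 82.3, 73.2 and 103 in KO1, and at 66.3, 64.9 and 60.8 in KO2. It was higher in KO1 by 0.39 on the log2 scale (SE 0.13, edgeR adjusted p = 0.025) and not called in KO2 (-0.04, edgeR adjusted p = 0.81). The KO1 call was lost on omission of any of 7 single libraries, and without KO1 replicate 3 the value was 0.24 (edgeR adjusted p = 0.060).

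Genes of the primary cilium, where Smo acts, were all tested, 38 of 38. In the combined comparison 16 rose and 4 fell (median log2 fold change 0.33), in KO1 21 rose and 7 fell, in KO2 18 rose and 3 fell, and between the clones 13 were higher and 4 lower in KO1. All genes were called at 43.0%, 59.9%, 51.4% and 38.7% in these comparisons. The transition zone gene Cc2d2a rose by 1.92 (SE 0.24, edgeR adjusted p = 0.00022). The intraflagellar transport motor genes Dync2li1 and Kifap3 rose by 1.41 (edgeR adjusted p = 0.0058) and 1.32 (edgeR adjusted p = 2.5e-05). Intu, a planar polarity effector needed for cilium assembly, fell by 1.48 (SE 0.14, edgeR adjusted p = 4.3e-05).

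Genes described as Hedgehog targets in other tissues did not move together. Of 18 listed 14 were tested, and in the combined comparison 5 rose and 3 fell (median log2 fold change 0.38), in KO1 6 rose and 4 fell, and in KO2 6 rose and 4 fell. Between the clones 1 was higher and 6 lower in KO1 (median -0.66 against 0.04 over all genes tested). The shares of all genes called were 43.0%, 59.9%, 51.4% and 38.7%. Osr1, a transcription factor of mesenchyme, was at 0.885, 1.16 and 0.240 CPM in control, at 18.0, 16.7 and 20.1 in KO1, and at 11.9, 13.4 and 15.3 in KO2 (log2 fold change 4.39, SE 0.50, edgeR adjusted p = 0.00012). Foxf1, a forkhead factor of gut and lung mesenchyme, was at 0.550, 0.738 and 0.379 CPM in control, at 4.61, 5.06 and 3.88 in KO1, and at 12.5, 12.4 and 10.4 in KO2 (log2 fold change 3.88, SE 0.56, edgeR adjusted p = 0.00049). These mesenchymal factors were higher in every clone library than in control. The fibroblast markers, of which 5 were higher and 1 lower of 8 tested in KO1 and 6 higher and 0 lower in KO2, moved in the same libraries, and their part in this was not tested.

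Bmp4, a secreted ligand of the BMP family, fell from 25.9, 21.2 and 43.1 CPM in control to 3.19, 4.76 and 3.99 in KO1 and 4.46, 5.11 and 3.02 in KO2 (log2 fold change -2.88, SE 0.25, edgeR adjusted p = 2.5e-05). Ccnd1, the cyclin that drives entry into S phase, was at 1175, 1185 and 1103 CPM in control, at 66.7, 103 and 66.1 in KO1, and at 453, 496 and 465 in KO2. All clone libraries were below control, with KO1 well below KO2. It fell by 3.87 on the log2 scale in KO1 (edgeR adjusted p = 4.1e-07) and by 1.29 in KO2 (edgeR adjusted p = 0.00023). The combined value was -2.07 (SE 0.68, edgeR adjusted p = 0.034), a call lost without control replicate 1 (-2.06), 2 (-2.08) or 3 (-2.10) or without KO1 replicate 2 (-1.90), with an edgeR adjusted p of up to 0.083.

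**Figure D5:**
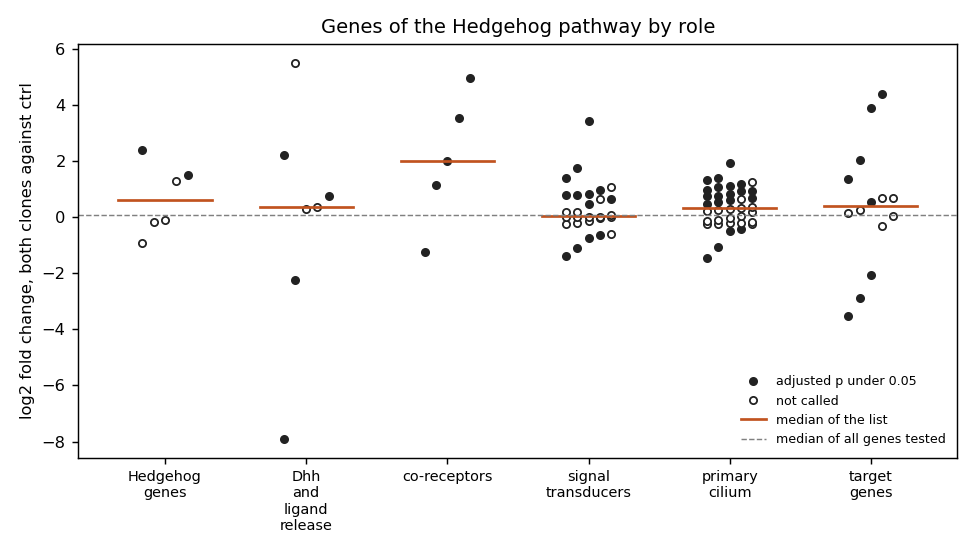
Log2 fold change of both clones against control for each tested gene of the Hedgehog genes and of the 5 pathway lists; filled points have an edgeR adjusted p under 0.05, the line is the median of the list and the dashed line the median of all genes tested (0.07). The co-receptor list has the highest median (1.98), and Dhh is the lowest point.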

How the data were processed

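Messenger RNA libraries were made by the authors with a stranded Illumina kit and sequenced as paired ends. Per the labels, kallisto 0.46.1 was used with genome build mm10. The deposited values are estimated counts per gene symbol, not normalized. They were read in as whole numbers, which drops any fraction, and whether any value held a fraction was not counted. The step that summed transcripts to genes is not given in the sources used here. Libraries were grouped by their labels.

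In edgeR 4.0.16 (R 4.3.3), filterByExpr removed genes of low count and TMM factors scaled the libraries. The combined comparison used 2 groups, and the clones were compared in a fit of 3 groups over all 9 libraries. Adjusted p values are from edgeR's quasi-likelihood test unless given with limma-voom, which has its own moderated test. Both are two-sided, with Benjamini-Hochberg adjustment over all genes tested and a threshold of 0.05. Library totals were 53415907 to 125223073 counts, so that variation among the 3 libraries of a group limits the precision of well expressed genes, and counting that of genes with few counts. Intervals on counts cover counting error only. Log2 levels for likeness used a prior count of 2, and transcript lengths came from GENCODE on the same build. Alternatives were limma-voom 3.58.1, DESeq2 1.42.0, upper-quartile scaling, other filters, a threshold of 0.01, pooled or separate fits, and omission of each library. The scripts were tested on simulated data.

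The genes and lists were chosen with earlier results of these data known. From each pathway list, up to 4 genes were named by the largest log2 fold change among those called in the combined comparison, reaching 1 CPM on average and not overlapping control. Dhh, Cdon, Boc, Gas1 and Sufu were named in any case. Some alleles of the line and some genes are not reported here.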

Additional observations from a re-analysis of the deposited data

Results flagged for a closer look

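Of the 6 tested Hedgehog genes, 4 differed between the knockout clones by the test of the difference itself. As KO1 minus KO2 on the log2 scale, Smo was at 0.38 (edgeR adjusted p = 0.030), Hhip at -12.7 (edgeR adjusted p = 0.00033), Gli1 at 2.17 (edgeR adjusted p = 0.028) and Gli2 at -4.83 (edgeR adjusted p = 0.00032). The value for Hhip depends on the prior count, since KO1 held 0 counts, and the bound is at least 266-fold. Over all genes tested, 38.7% were called between the clones. Each clone descends from a single cell, and the difference between clones and the effect of the edit cannot be told apart.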

How the results depend on the processing

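No paired analysis was possible because the titles give the libraries no replicate numbers that groups share, and numbers 1 to 3 only name libraries. Over the alternatives, 346 values of single Hedgehog genes kept their direction and their side of the threshold, 16 lost and 5 gained a call, and 9 changed sign. None of those that changed sign was called. They were Gli2 over both clones with limma-voom (-0.45) and with the average of the clones' contrasts (-0.18), Hhip over both clones (range -0.53 to 0.82 with 1 library left out, 0.82 without control replicate 2 and 0.17 without any 1 KO1 library), Ptch1 in KO2 (-0.23 to 0.13) and Gli1 in KO1 (-0.57 to 0.020). The cause was not tested.

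The count of Hedgehog genes called was 2 in all 9 fits with 1 library left out in the combined comparison, 4 to 5 in KO1, 3 to 5 in KO2 and 2 to 4 between the clones. It was 2 in KO2 and 2 between the clones with a mean of at least 1 CPM, which leaves out Gli1 and Gli2, and 2 between the clones at a threshold of 0.01. With the average of the clones' contrasts it was 4 in the combined comparison, with Hhip (-5.45, edgeR adjusted p = 0.00089) and Gli1 (-1.32, edgeR adjusted p = 0.047) added. In that fit the difference between clones does not count as spread. The Hhip value, -0.10 in the pooled fit, also moved. It depends on the prior count, since KO1 held 0 counts, and describes neither clone. Hhip in KO2 passed with limma-voom (1.37, adjusted p = 0.030). At 0.01, 4882 genes in place of 7591 were called in the combined comparison and 4060 in place of 6834 between the clones. Called genes of the pathway lists were 39 to 54 with 1 library left out, against 50. With the median transcript length the Gli3 share was 83.1% in control and 91.5% in KO2. Without KO1 replicate 3, 5 of the 12 most alike genes stayed the same. For Hhip only Mmp10 stayed, while Wnt7b and Cdh19 took the places of Wnt6 and Rragb. Depth limits Shh and Ihh, and leaves Gli1 and Gli2 in some groups with few counts.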

Other observations

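Grem1, a secreted antagonist of BMP ligands that stands in the list of targets, was singled out after its values were seen. It was at 47.4, 111.7 and 46.1 CPM in control, at 0.0599, 0.0209 and 0.144 in KO1, and at 129.5, 125.2 and 77.7 in KO2. Grem1 was thus nearly absent in KO1, where Hhip had 0 counts, and overlapped control in KO2. It fell by 9.94 on the log2 scale in KO1 (SE 0.63, edgeR adjusted p = 1.5e-06), was not called in KO2 (0.70, edgeR adjusted p = 0.16), and differed between the clones by -10.64 (edgeR adjusted p = 6.3e-06).

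Rragb, a GTPase of the amino acid sensing branch of mTORC1, was among the 3 genes most like Hhip over all 9 libraries, but not without KO1 replicate 3. It was at 2.63 to 3.396 CPM in control, at most 0.0449 in KO1 and at 11.2, 10.9 and 11.2 in KO2.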
